A study of Rattus norvegicus with 9 samples.

Results

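The genes described here handle retinoic acid or respond to it, and they were taken by name from the deposited table: Aldh1a1, Aldh1a2, Aldh1a3, Crabp1, Crabp2, Cyp26b1, Dhrs3, Rarb and Rarg. All 9 had 1 row each among the 19085 genes of the table. The 9 libraries came from primary osteoblasts that had been released by collagenase from the calvaria of male Sprague-Dawley rats 24 hours old. All groups were cultured for 7 days in osteogenic induction medium with fetal bovine serum, β-glycerophosphate, ascorbic acid and dexamethasone. The control group (3 libraries) received this medium alone, the thrombin group (3 libraries) received 20 U/mL thrombin in addition, and the PD03 group (3 libraries) received 20 U/mL thrombin together with 0.1 μM PD0325901, an inhibitor of the kinases MEK1 and MEK2. A protocol among the sample labels gives this last concentration in mM, and the tissue field of the labels says knee. No library had PD03 without thrombin, so an effect of PD03 on the cells and an effect on their response to thrombin cannot be told apart. The number of rats behind each library is not stated, so p-values measure the spread between these libraries.

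Retinoic acid is made from retinol in a pair of oxidation steps. Retinol dehydrogenases such as Rdh10 form retinaldehyde, and the aldehyde dehydrogenases Aldh1a1, Aldh1a2 and Aldh1a3 turn it into retinoic acid, while Dhrs3 reduces retinaldehyde back to retinol. Inside the cell, retinoic acid is bound by Crabp1 and Crabp2, is oxidised and inactivated by Cyp26 enzymes such as Cyp26b1, and acts on the nuclear receptors Rara, Rarb and Rarg, which pair with Rxr proteins on DNA. In the skeleton, local breakdown of retinoic acid by Cyp26b1 is known to be needed for normal bone and suture formation in the skull.

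Total counts per library lay between 15447832 and 19841468, and levels are expressed in CPM, the unit of library-scaled counts, with TMM factors applied. All libraries were fitted in 1 edgeR model, and a call required an adjusted p-value below 0.05 with a log2 fold change beyond 0.58 in either direction. Of 13256 genes with enough counts for a test, 8.06% were called in the thrombin group against control (2.62% higher, 5.44% lower), 15.9% in the PD03 group against thrombin (9.61% higher, 6.31% lower) and 8.97% in the PD03 group against control (4.9% higher, 4.07% lower). With the adjusted p-value alone, the shares were 28.7%, 49.8% and 39.9%. The scaling of libraries bears on the direction of these calls: of the genes called with PD03, 60.4% were higher against thrombin and 54.6% against control, but 46.5% and 34.1% when libraries were scaled by their totals. The osteoblast label was checked against 9 markers. Col1a1 took 4.18% to 5.05% of the counts in control and thrombin libraries and 6.78% to 6.96% with PD03, and Runx2, Sp7, Pth1r and Spp1 were measured in all groups, but the late markers Bglap, Ibsp and Dmp1 had at most 5 counts in a library, with Ibsp and Dmp1 at 0 in all thrombin libraries, and Alpl averaged 1.67, 0.35 and 3.11 CPM in control, thrombin and PD03 libraries.

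Of the 9 retinoid genes, 8 had enough counts for a test and Aldh1a1 did not. With thrombin against control, 1 gene was called higher (Cyp26b1) and 1 lower (Aldh1a2). With PD03 against thrombin, 3 were called higher (Aldh1a3, Crabp2 and Dhrs3) and 2 lower (Crabp1 and Cyp26b1), and with PD03 against control 2 were called higher (Aldh1a3 and Dhrs3) and 2 lower (Aldh1a2 and Crabp1). Aldh1a3 passed the filter on low counts only through the PD03 group, where it was high, so its calls with PD03 are not independent of that filter. Rarb and Rarg were called in no comparison. With the adjusted p-value alone, 4, 5 and 5 of the 8 passed, beside 28.7%, 49.8% and 39.9% of all tested genes. Each group of libraries enters 2 of the 3 comparisons, so these are not independent of each other.

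**Figure D1:**
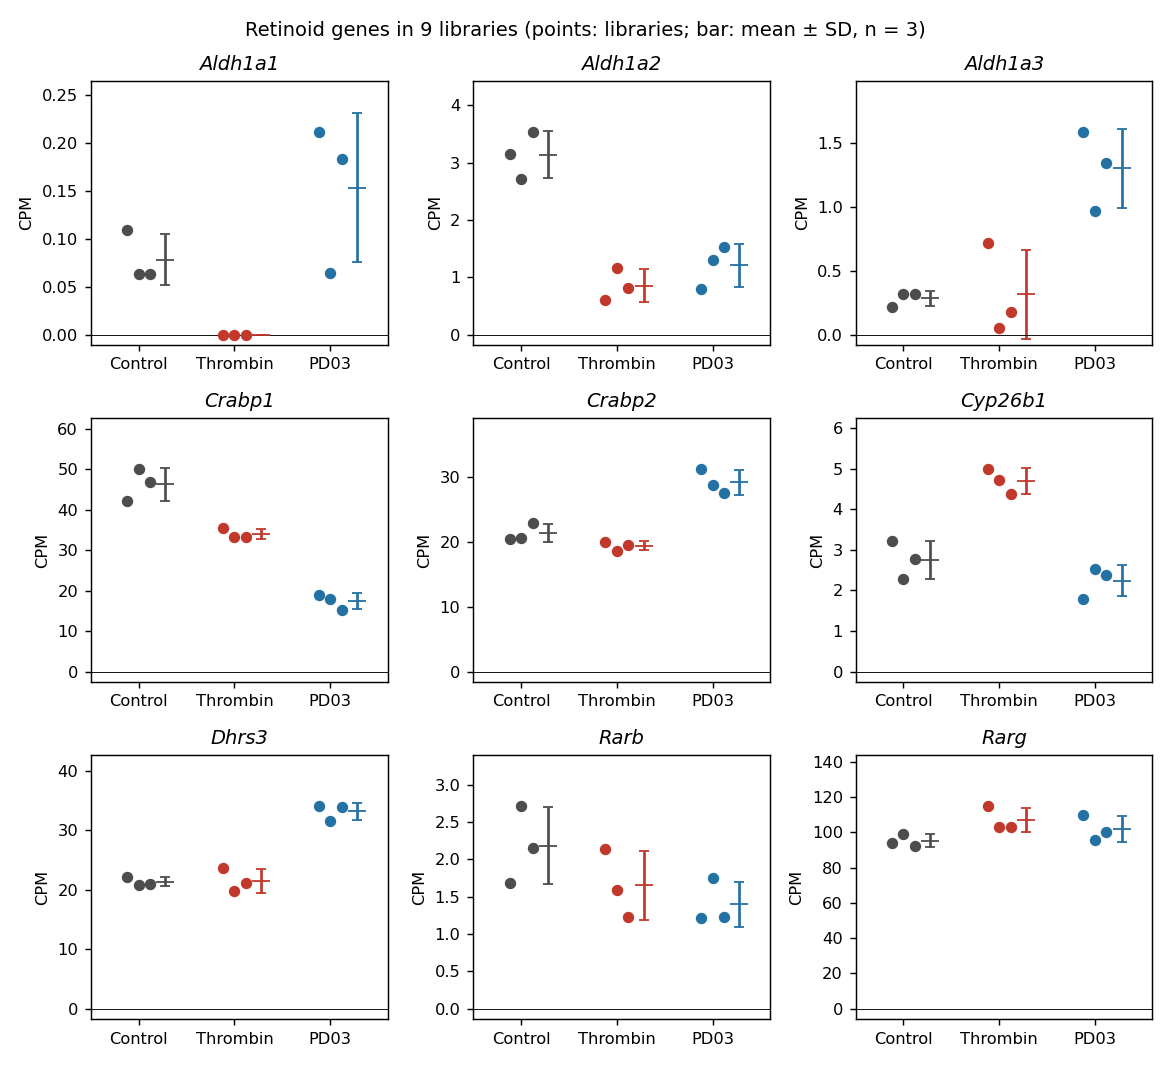
Level of the 9 retinoid genes in each library, in CPM after TMM scaling, with 1 panel per gene and its own vertical axis. Points are libraries and the bars beside them are mean ± SD (n = 3). Aldh1a2 was lower in the thrombin and PD03 libraries than in any control library, Cyp26b1 was highest in the thrombin libraries, and Dhrs3 was highest in the PD03 libraries.

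On a scale per gene length (the FPKM values of the authors), Crabp1 was the most abundant of these genes in the control group, at 52.8 ± 4.17 FPKM (SD, n = 3), followed by Rarg at 30.7 ± 1.12 FPKM, Crabp2 at 12.7 ± 0.743 FPKM and Dhrs3 at 9.61 ± 0.442 FPKM. The libraries of these 4 genes did not overlap in the control group. Aldh1a2 came next at 1.44 ± 0.189 FPKM. Cyp26b1 (0.624 ± 0.111 FPKM) and Rarb (0.562 ± 0.129 FPKM) overlapped, and Aldh1a3 (0.0852 ± 0.0164 FPKM) and Aldh1a1 (0.0144 to 0.0252 FPKM) were lowest. In the PD03 group the order changed: Rarg (30.3 ± 2.14 FPKM) stood above Crabp1 (18.3 ± 2.13 FPKM), Crabp1 overlapped with Crabp2 (16.0 ± 1.06 FPKM), and Aldh1a2 (0.511 ± 0.159 FPKM), Cyp26b1 (0.468 ± 0.0806 FPKM), Aldh1a3 (0.362 ± 0.0862 FPKM) and Rarb (0.333 ± 0.0733 FPKM) each overlapped with the next.

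Aldh1a2 (ENSRNOG00000055049), the main retinaldehyde dehydrogenase of embryonic mesenchyme, was measured at 3.15, 2.72 and 3.54 CPM in control replicates 1 to 3, at 0.595, 1.15 and 0.816 CPM in the thrombin replicates and at 0.795, 1.30 and 1.53 CPM in the PD03 replicates. Every control library was above every other library, while the thrombin and PD03 libraries overlapped. With thrombin, Aldh1a2 was 3.62-fold below control (log2 fold change -1.86, standard error (SE) 0.31, adjusted p = 5.1e-06). With PD03 it was 2.62-fold below control (log2 fold change -1.39, SE 0.29, adjusted p = 1.4e-04). Between the PD03 and thrombin groups a difference was not detectable at this depth, since the log2 fold change of 0.47 had a 95% interval from -0.25 to 1.18 (adjusted p = 0.28). These values rest on 10 to 58 counts per library.

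Aldh1a2 is also known as a gene of the meninges, which lie under the calvaria, so markers of the meninges were set beside it. Of 10 such markers, 8 had a row in the table, and none of the 8 was at 0 in all libraries of a group. Slc6a13 and Slc22a6 had no row. Every gene of the table had a count in some library, so a gene without a row may have had none. The 8 markers with a row summed to 205 to 232 CPM in the control libraries, 208 to 216 CPM in the thrombin libraries and 224 to 240 CPM in the PD03 libraries. Most of this sum came from Zic1, Foxc1, Zic2 and Foxd1 (77.1, 51.3, 36.8 and 31.9 CPM in the control group), so it says little about the lower markers. With thrombin, 2 of the 7 tested markers were called lower (Cldn11 and Tbx18), 1 was called higher (Slc47a1) and the other 4 (Foxc1, Foxd1, Zic1 and Zic2) were not called. In the control, thrombin and PD03 groups, Cldn11 averaged 0.756, 0.0781 and 1.53 CPM and Tbx18 19.8, 13.2 and 23.0 CPM. Slc47a1 averaged 3.38, 11.6 and 1.37 CPM, and Ptgds, which was not tested, had at most 3 counts in a library. The part of such cells in the level of Aldh1a2 was not tested. Markers of other cells that calvaria could bring were summed in the same way. Macrophage markers (6 of 8 with a row) summed to 20.3 to 23.4 CPM in the control libraries, 28.8 to 32.4 with thrombin and 17.2 to 19.1 with PD03, nearly all of it from Cd14, while Adgre1 and Ptprc were below 0.3 CPM in the mean of each group. Csf1r, the only other one tested, averaged 0.440, 0.746 and 1.24 CPM in the control, thrombin and PD03 groups, with at most 26 counts in a library. It was called higher with PD03 against control (log2 fold change 1.47, adjusted p = 0.0045). Endothelial markers (3 of 5) summed to 6.69 to 7.77, 6.31 to 8.51 and 11.1 to 12.6 CPM, chondrocyte markers (3 of 4) to 86.6 to 96.8, 62.8 to 67.8 and 70.2 to 76.7 CPM, muscle markers (3 of 4) to 7.26 to 8.72, 7.29 to 8.80 and 8.45 to 10.0 CPM, and adipocyte markers (5 of 5) to 6.51 to 8.21, 7.24 to 8.92 and 6.06 to 6.54 CPM. Single genes made up most of these sums, namely Tek, Col2a1, Des and Lipe. Col2a1 averaged 84.4, 49.2 and 56.4 CPM and was called lower with thrombin and with PD03 against control. The other chondrocyte markers, Sox9 and Acan, were called higher in both of these comparisons. Acan had 7 to 13 counts per control library and passed the filter on low counts only through the thrombin and PD03 groups. Its calls are therefore not independent of that filter and serve as description. C1qa, C1qb, Cdh5, Emcn, Matn1 and Myod1 had no row. Adipoq was at 0 in all PD03 libraries, and no other marker of these lists that had a row was at 0 throughout a group. The part of these other cells in the results was not tested. In bulk RNA, fewer cells that express a gene and less RNA of it per cell cannot be told apart, which holds for all values here.

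Aldh1a3 (ENSRNOG00000052070), another retinaldehyde dehydrogenase, had a different pattern. It stood at 0.218, 0.316 and 0.316 CPM in the control replicates and 0.714, 0.0548 and 0.175 CPM in the thrombin replicates, and it reached 1.59, 0.971 and 1.35 CPM in the PD03 replicates. All PD03 libraries were above the other 6, and the thrombin libraries were spread around the control libraries. With PD03, Aldh1a3 was 4.20-fold higher than with thrombin alone (log2 fold change 2.07, SE 0.49, adjusted p = 5.0e-04) and 4.60-fold higher than in control libraries (log2 fold change 2.20, SE 0.51, adjusted p = 4.6e-04). Aldh1a3 had 4 to 5 counts per control library and 15 to 30 per PD03 library, and it passed the filter on low counts only through the PD03 group. Its p-values with PD03 are therefore not independent of that filter and serve as description. Thrombin replicate 1 carried 12 of the 16 counts of the thrombin group, and without that library the log2 fold change of PD03 against thrombin was 3.44. Without thrombin replicate 2, which had 1 count, it was 1.55, and the gene was called in both cases.

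Aldh1a1 (ENSRNOG00000017619), the remaining gene of this enzyme family, was close to absent. It had 4 counts over the 3 control libraries, 0 in the thrombin libraries and 8 over the 3 PD03 libraries. A floor of 3 counts pooled over the thrombin group corresponds to 0.0575 CPM, beside 0.158 CPM pooled over the PD03 group. The single PD03 replicates had 0.212, 0.0648 and 0.184 CPM, to which this pooled floor does not apply. The floor covers counting error only, and with so few counts no fold is given. Its rodent paralog Aldh1a7 is close in sequence, so how reads were split between them is uncertain. Summed over the 3 Aldh1a genes, the level per gene length was 1.35 to 1.72 FPKM in control, 0.421 to 0.539 FPKM in thrombin and 0.824 to 1.06 FPKM in PD03 libraries. Aldh1a2 made up 91.9% to 94.1% of that sum in control, 55.9% to 97.0% in thrombin and 40.9% to 65.9% in PD03 libraries.

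Cyp26b1 (ENSRNOG00000015076), which breaks down retinoic acid, was high with thrombin and low without it or with PD03. The control replicates had 3.21, 2.27 and 2.78 CPM, the thrombin replicates 5.00, 4.72 and 4.37 CPM, and the PD03 replicates 1.80, 2.53 and 2.39 CPM. No thrombin library overlapped with the other groups, whereas control and PD03 libraries did overlap. Thrombin raised Cyp26b1 1.69-fold (log2 fold change 0.76, SE 0.20, adjusted p = 0.0033). In the PD03 group it was 2.11-fold lower than with thrombin (log2 fold change -1.08, SE 0.21, adjusted p = 3.3e-05), and against control the log2 fold change of -0.32 had a 95% interval from -0.78 to 0.14 (adjusted p = 0.28). In a test of whether the change exceeds 0.58 (glmTreat of edgeR), Cyp26b1 was not called with thrombin. Within a library, the summed Aldh1a level was 2.12 to 2.75 times that of Cyp26b1 in the control group, 0.431 to 0.511 times with thrombin and 1.58 to 2.19 times with PD03, on the FPKM scale. This ratio was chosen after the values were seen, and with 3 libraries against 3 an exact two-sided permutation test cannot give a p-value below 0.10.

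Dhrs3 (ENSRNOG00000015736), the reductase that returns retinaldehyde to retinol, was measured at 22.2, 20.8 and 21.0 CPM in the control replicates, 23.6, 19.7 and 21.2 CPM in the thrombin replicates and 34.1, 31.6 and 34.0 CPM in the PD03 replicates. The control and thrombin libraries overlapped, with a log2 fold change of 0.01 and a 95% interval from -0.16 to 0.17. All PD03 libraries were above the other 6. Dhrs3 was 1.55-fold higher with PD03 than with thrombin (log2 fold change 0.63, SE 0.08, adjusted p = 6.1e-09) and 1.56-fold higher than in the control group (log2 fold change 0.64, SE 0.08, adjusted p = 8.9e-09). These changes lie just above the fold threshold, and with libraries scaled by their totals they were 0.53 and 0.52 on the log2 scale and were not called.

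The 2 binding proteins went in opposite directions with PD03 against thrombin. Crabp1 (ENSRNOG00000023633) was measured at 42.0, 50.1 and 46.7 CPM in the control replicates, 35.5, 33.2 and 33.2 CPM in the thrombin replicates and 19.0, 17.9 and 15.1 CPM in the PD03 replicates. The groups did not overlap, and their order was control, thrombin, PD03. With thrombin the log2 fold change was -0.44 (SE 0.07, adjusted p = 5.2e-06), which is past the p-value threshold and short of the fold threshold. With PD03, Crabp1 was 1.95-fold below its level with thrombin alone (log2 fold change -0.97, SE 0.08, adjusted p = 2.7e-13) and 2.66-fold below control (log2 fold change -1.41, SE 0.08, adjusted p = 1.6e-18).

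Crabp2 (ENSRNOG00000022101), which delivers retinoic acid to its receptors in the nucleus, was measured at 20.5, 20.6 and 22.9 CPM in the control replicates, 20.0, 18.7 and 19.5 CPM in the thrombin replicates and 31.3, 28.8 and 27.6 CPM in the PD03 replicates. The PD03 libraries were above all others. Crabp2 was 1.51-fold higher with PD03 than with thrombin alone (log2 fold change 0.59, SE 0.08, adjusted p = 5.0e-08), a value next to the fold threshold, and its log2 fold change against control was 0.46 (SE 0.08, adjusted p = 1.0e-05), short of it. With thrombin it was -0.14 (adjusted p = 0.24). With libraries scaled by their totals, Crabp2 was not called against thrombin (log2 fold change 0.49). Per gene length, Crabp1 was 3.92 to 4.66 times as abundant as Crabp2 in the control libraries, 3.27 to 3.42 times in the thrombin libraries and 1.05 to 1.20 times in the PD03 libraries. This ratio was chosen after the values were seen, and it does not depend on how libraries are scaled.

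**Figure D2:**
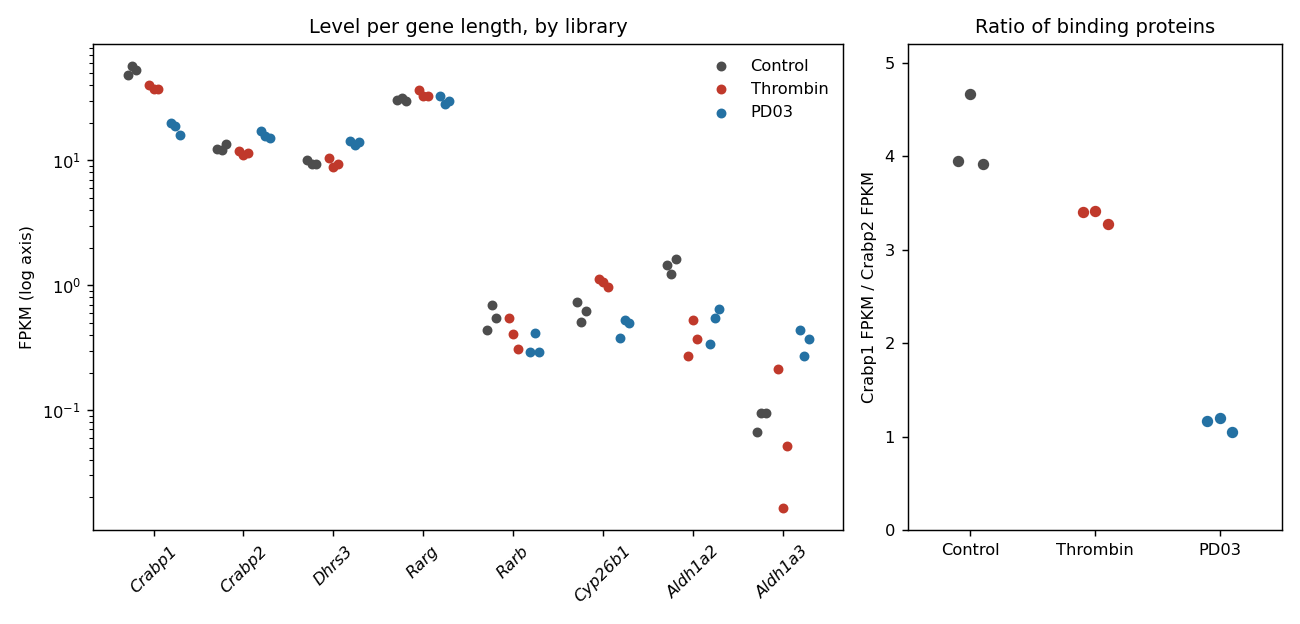
Left, level per gene length of 8 retinoid genes in each library, as FPKM on a log axis (Aldh1a1, listed at 0 in the thrombin libraries, is left out). Right, the ratio of Crabp1 to Crabp2 FPKM within each library on a linear axis, which was 3.92 to 4.66 in the control libraries, 3.27 to 3.42 in the thrombin libraries and 1.05 to 1.20 in the PD03 libraries. Points are libraries (3 per group).

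The sequences before the start sites of the members were searched, on both strands, for TGACTCA, the consensus site of the transcription factor AP-1, in the windows of RefSeq (rat build GRCr8) that run from 250 bases before to 50 after a start. All 9 genes had a window (10 windows, since Rarg had more than 1). TGACTCA was found in the windows of 2 genes, Crabp1 and Cyp26b1, which are the 2 members called lower with PD03 against thrombin, and in 4.63% of all 33469 windows. With thrombin against control the log2 fold changes of these 2 genes had opposite signs (-0.44 for Crabp1 and 0.76 for Cyp26b1). The share of the motif among all genes called lower with PD03 was not counted. The motif was chosen after the values and windows had been seen. Binding of AP-1 was not measured, and a match is only a description of the letters. Both stretches are shown 5′ to 3′ on the strand of the gene, with TGACTCA in capitals, from chr8:64047375-64047421 (plus strand, 56 to 10 bases before the start of Crabp1) and from chr4:118616296-118616342 (minus strand, 166 to 120 bases before the start of Cyp26b1).
Crabp1: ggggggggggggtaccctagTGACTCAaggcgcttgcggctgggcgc
Cyp26b1: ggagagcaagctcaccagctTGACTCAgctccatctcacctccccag

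Of the receptors, Rarg (ENSRNOG00000012499) was the more abundant, with 45.7 to 112.6 times the FPKM of Rarb over the 9 libraries. Rarg was measured at 93.7, 99.3 and 92.3 CPM in the control replicates, 115, 103 and 103 CPM in the thrombin replicates and 110, 95.5 and 100.3 CPM in the PD03 replicates. The thrombin libraries were above the control libraries by a small margin, with a log2 fold change of 0.17 (SE 0.05, adjusted p = 0.012), short of the fold threshold. The 95% interval ran from 0.06 to 0.27. Between PD03 and thrombin it ran from -0.17 to 0.04, which lies inside the fold threshold on both sides.

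Rarb (ENSRNOG00000024061) is the classical retinoic acid target among the receptors, since its promoter carries a retinoic acid response element, a direct repeat of 2 half-sites with 5 bases between them (DR5). The half-site AGGTCA and its variants (AGTTCA or GGGTCA or GGTTCA) were searched on both strands in the same windows. A DR5 was found in the window of Rarb alone among the members, and in 0.382% of all windows. No member window held a repeat with 1 or 2 bases between the half-sites (DR1 or DR2, in 0.233% and 0.17% of all windows). Single half-sites, which the repeats contain, were in the windows of 3 members (Aldh1a1, Rarb and Rarg) and in 44.4% of all windows. The DR5 of Rarb lies 25 to 41 bases after the listed start, and it is shown from chr15:11336410-11336439 (GRCr8, plus strand) with both half-sites in capitals.
Rarb: gggaagGGTTCAccgaaAGTTCActcgcat

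Rarb was measured at 1.69, 2.72 and 2.15 CPM in the control replicates, 2.14, 1.59 and 1.22 CPM in the thrombin replicates and 1.22, 1.75 and 1.22 CPM in the PD03 replicates. The groups overlapped in every comparison. The log2 fold change was -0.39 with thrombin (95% interval -0.98 to 0.19, adjusted p = 0.34) and -0.25 with PD03 against thrombin (95% interval -0.87 to 0.38, adjusted p = 0.53). Against control, Rarb in the PD03 group had a log2 fold change of -0.64 (SE 0.30, adjusted p = 0.084), which was not called. With 20 to 43 counts per library, changes of this size were at the limit of what the libraries could show.

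**Figure D3:**
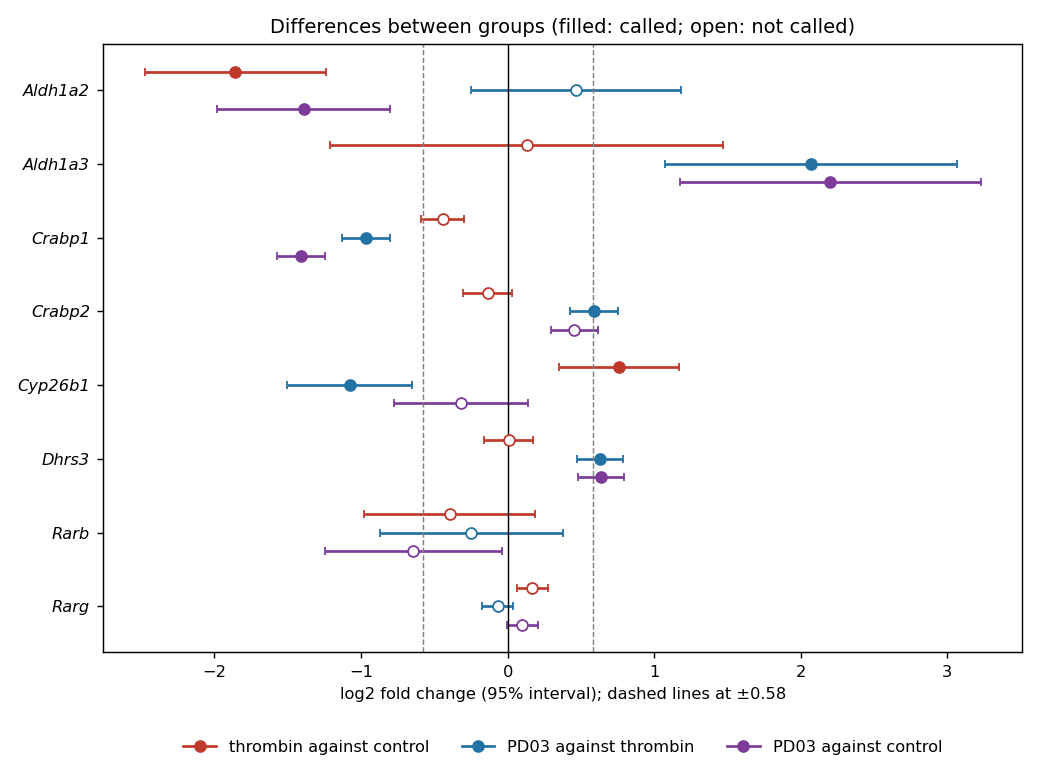
Log2 fold change of the 8 tested retinoid genes in the 3 comparisons, with 95% intervals from the edgeR fit. Filled points were called and open points were not, and dashed lines mark the fold threshold of 0.58. Aldh1a2 lies left of 0 in both comparisons with control, Aldh1a3 lies right of 0 in both comparisons of PD03, and Rarg lies close to 0 in all 3.

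Other genes that handle retinoids were collected in a list of 28, of which 23 had a row and 14 were tested. With thrombin, 1 was called higher and 1 lower, and with PD03 against thrombin 2 were called higher and 2 lower. The medians of their log2 fold changes were -0.10 and 0.05, beside -0.01 and 0.01 over all tested genes. Rbp4, the carrier of retinol in plasma, went from 9.62 ± 0.951 CPM in control to 5.53 ± 0.259 CPM in thrombin and 12.2 ± 0.910 CPM in PD03 libraries (log2 fold change -0.80, adjusted p = 5.2e-06, and 1.14, adjusted p = 5.4e-10). Fabp5, a fatty acid binding protein that can also carry retinoic acid, moved the opposite way, from 87.1 ± 3.37 CPM through 135 ± 2.40 CPM to 89.2 ± 2.93 CPM (log2 fold change 0.63, adjusted p = 9.3e-15, and -0.59, adjusted p = 2.1e-14).

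Aldh8a1, a further aldehyde dehydrogenase, was at 0.651 ± 0.237 CPM, 0.723 ± 0.183 CPM and 1.53 ± 0.478 CPM in the control, thrombin and PD03 groups (log2 fold change 1.06 with PD03 against thrombin, adjusted p = 0.015). Adh7, an alcohol dehydrogenase that can oxidise retinol, was called lower with PD03 against control (log2 fold change -0.65, adjusted p = 3.7e-05), and with thrombin its log2 fold change of -0.57 was short of the fold threshold. Rdh10 was called in no comparison (log2 fold change -0.41 with thrombin, adjusted p = 0.15, and 0.29 with PD03 against thrombin, adjusted p = 0.26). The retinol uptake receptor Stra6 and the retinol esterifying enzyme Lrat had at most 2 and 1 counts in a library, and Cyp26c1 had at most 1. Cyp26a1, another enzyme of the Cyp26 family, had no row in the table.

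Of 10 other receptors and cofactors, 9 were tested and none was called in any comparison by edgeR's quasi-likelihood test. With the adjusted p-value alone, 1 passed with thrombin, 4 with PD03 against thrombin and 2 with PD03 against control, beside 28.7%, 49.8% and 39.9% of all tested genes. Rara and Rxra stood at 47.5 ± 3.53 CPM and 55.9 ± 2.48 CPM in the control group, with log2 fold changes from -0.09 to 0.09 over all comparisons. The corepressor gene Nrip1, itself induced by retinoic acid in other cells, had a log2 fold change of 0.39 with PD03 against thrombin (adjusted p = 6.5e-04), short of the fold threshold.

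Genes known to respond to retinoic acid in various tissues were collected in a list of 19, of which 15 had a row and 10 were tested. Hoxb1, Hoxb5, Stra8 and Cebpe had no row. With thrombin 2 were called lower and none higher. With PD03 against thrombin 3 were called higher and 1 lower, and the same numbers were called with PD03 against control. The medians of the log2 fold changes were -0.02, -0.17 and -0.08 in these comparisons, beside -0.01, 0.01 and -0.00 over all tested genes. Tgm2, a transglutaminase that crosslinks matrix proteins, averaged 82.3 ± 3.14 CPM in control libraries, 33.3 ± 2.25 CPM with thrombin and 153 ± 13.2 CPM with PD03, with log2 fold changes of -1.31 (SE 0.06, adjusted p = 4.1e-21) and 2.20 (SE 0.06, adjusted p = 3.7e-30). Rarres2, which encodes the chemoattractant chemerin, went from 32.2 ± 1.55 CPM to 6.27 ± 1.13 CPM and 48.6 ± 3.44 CPM, with log2 fold changes of -2.35 (SE 0.10, adjusted p = 7.7e-23) and 2.95 (SE 0.10, adjusted p = 2.0e-27).

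Rarres1 was at 17.4 ± 3.34 CPM in the control group, 11.8 ± 1.07 CPM with thrombin and 39.5 ± 0.747 CPM with PD03 (log2 fold change 1.74 against thrombin, adjusted p = 3.9e-19). Mgp, an inhibitor of calcification whose gene also responds to retinoic acid, had the opposite direction with PD03, from 369 ± 17.5 CPM with thrombin to 167 ± 4.02 CPM (log2 fold change -1.14, SE 0.04, adjusted p = 2.3e-26). The 6 remaining tested genes of the list, among them Meis1, Meis2, Nr2f1 and Nr2f2, were called in no comparison.

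**Figure D4:**
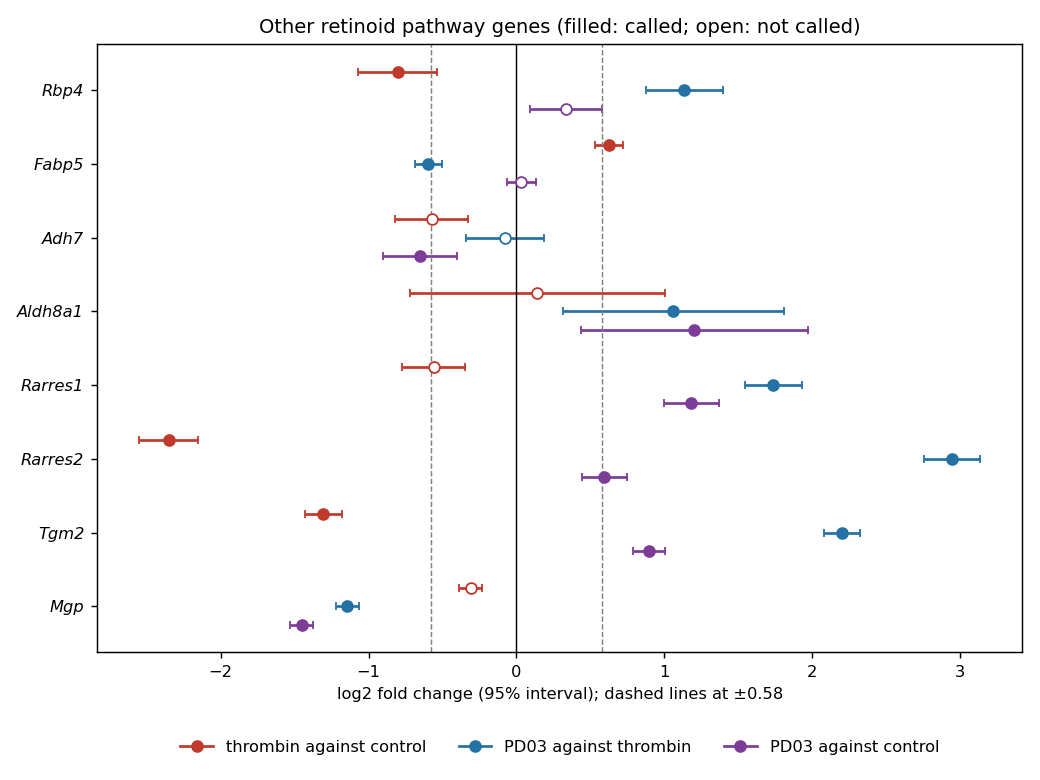
Log2 fold change of 8 other retinoid pathway genes that were called in at least 1 comparison, with 95% intervals. Filled points were called and open points were not, and dashed lines mark the fold threshold of 0.58. Tgm2 and Rarres2 lie left of 0 with thrombin and right of 0 with PD03 against thrombin, whereas Mgp lies left of 0 in both comparisons of PD03.

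For the 2 members called with thrombin, the tested genes with the most similar profile over the 9 libraries were listed, by the root mean square difference of log2 CPM after each gene was centred on its own mean. For Aldh1a2, whose own spread on that measure was 0.66, these were Arhgap20 (0.22) and St6galnac2 (0.23). For Cyp26b1, with a spread of 0.42, these were Mthfd2l (0.10), a mitochondrial enzyme of folate metabolism, and Ccn4 (0.12), a secreted matricellular protein. These genes were picked for their likeness over the same libraries, so similar fold changes follow from the choice. With thrombin and with PD03 against thrombin, the log2 fold changes were 0.84 and -1.01 for Mthfd2l and 0.78 and -0.97 for Ccn4, beside 0.76 and -1.08 for Cyp26b1. They were -1.40 and 0.61 for Arhgap20 and -1.74 and 0.83 for St6galnac2, beside -1.86 and 0.47 for Aldh1a2.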

How the data were processed

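Polyadenylated RNA of 9 libraries (3 per group) was sequenced by the authors. According to the paper, reads were trimmed with fastp, aligned with HISAT2 to Rnor_6.0 and counted with featureCounts, whereas the submitters' processing notes name HTSeq 0.13.5 and the build mRatBN7.2. The sources used here do not give the annotation release or the use of strand. The authors deposited raw counts and FPKM values per gene and library. The counts were used for all tests, and the FPKM values for levels between genes and as an alternative.

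R 4.3.3, edgeR 4.0.16, limma 3.58.1, DESeq2 1.42.0, Python 3.11.15 and matplotlib 3.10.9 were used. Genes were kept by filterByExpr (minimum count 10), scaled by TMM and fitted over all 9 libraries with edgeR's quasi-likelihood method, with Benjamini-Hochberg adjustment over 13256 genes. The standard error was taken from the F statistic. The procedure was tested on simulated data. No pair of replicates was alike within sampling error (chi-square over degrees of freedom, 1.82 to 4.04), so all were kept. Replicates 2 and 3 gave the lowest value in each group (1.82 in control, 2.15 in thrombin and 1.92 in PD03 libraries). Pairs with replicate 1 gave 3.06 to 4.04. The common biological coefficient of variation was 4.28%. Whether the libraries of a group came from separate isolates of cells was not tested, and these values do not show it. The members and lists were chosen with earlier results of these data known. All members are named, with most of the list genes called in a comparison that includes the thrombin libraries, and the 2 genes nearest in profile to each member called with thrombin. Adh7 and the uncalled genes named were picked after their values were seen. The values of some list genes are not reported here, although counts over a list include them. Other scalings, filters, tests and thresholds, the FPKM values, a block on the replicate number, and fits without each library were tried.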

Additional observations from a re-analysis of the deposited data

How the results depend on the processing

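In the comparisons in which a member was called, its direction was the same under every alternative run. Among the comparisons without a call, the direction turned in some alternatives for Aldh1a3 (-1.25 to 0.65) and Dhrs3 (-0.06 to 0.07) with thrombin and for Rarg (-0.02 to 0.14) with PD03 against control. The replicate block changed no call of a member, and the numbers did not pair the libraries of different groups (correlations of deviations from -0.04 to 0.07 for the same number, -0.06 to 0.05 for others). Within each group, replicate 1 differed more from the other replicates by chi-square than those did from each other. With the replicate block, 2 members were called with thrombin, 5 with PD03 against thrombin and 4 with PD03 against control, as without it. The block called 8.05%, 15.9% and 8.95% of all tested genes. Library totals set the median log2 fold change at -0.12 over all genes for PD03 against control. These totals called 3 members with PD03 against thrombin, of which 1 was higher, beside 16.6% of all tested genes. They also called Rarb lower with PD03 against control (-0.76), as did the FPKM values with 0.1 added (-0.61) and the fit without Control replicate 1 (-0.81). A mean count of at least 50 left 5 members tested, with 1 called with thrombin and 2 with PD03 against control, beside 6.67% and 7.41% of all genes tested there. With no filter, Crabp2 lost its call with PD03 against thrombin (0.57), and Aldh1a1, at 0 in all thrombin libraries, gained one (adjusted p = 0.049).

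With no fold threshold, 4 members passed with thrombin, and 28.7%, 49.8% and 39.9% of all tested genes passed in the 3 comparisons. In the same setting the other handling genes gave 5, 9 and 6 in the 3 comparisons, the receptors and cofactors 1, 4 and 2, and the responsive genes 4 with thrombin and 7 with PD03 against thrombin. With a log2 fold change above 1, the members gave 1 with thrombin and 2 with PD03 against thrombin, the other handling genes 0 and 2, and the responsive genes 2 with PD03 against control. Over all tested genes this setting called 3.81%, 7.05% and 3.92% in the 3 comparisons. With glmTreat, the members gave 1 with thrombin and 3 with PD03 against thrombin, and the other handling genes 0, 2 and 1, beside 3.47%, 7.93% and 3.76% of all tested genes. From the FPKM values with 1 added, 1, 1 and 2 members were called, beside 4.1%, 9.46% and 5.1% of all tested genes. With 0.1 added, 3 were called with PD03 against thrombin, beside 16% of all tested genes. The FPKM scale with 1 added understates changes of low genes.

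Leaving out 1 library gave 2 to 2, 3 to 5 and 4 to 5 called members in the 3 comparisons, beside 7.36% to 8.08%, 15.2% to 16% and 8.7% to 8.97% of all tested genes. The lowest value, 3 with PD03 against thrombin, came without Thrombin replicate 2, where Crabp2 (0.55) and Dhrs3 (0.56) were short of the fold threshold. Crabp2 also lost its call without PD03 replicate 1 (0.54). The other handling genes gave 2 to 4 (4 without Thrombin replicate 3), 4 to 5 and 1 to 4 (1 without Control replicate 3), the receptors and cofactors 0 to 0 in each, and the responsive genes 2 to 3, 4 to 4 and 3 to 4. Depth limits Aldh1a1, Aldh1a3, Aldh1a2, Rarb and Cyp26b1, which had at most 86 counts in a library. Over single members and comparisons, 251 alternative fits kept the call or its absence, 23 lost a call and 5 gained one, and without 1 library the numbers were 212, 3 and 1.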
